A study of Mus musculus with 4 samples.

Results

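The GIMAP GTPases (GTPases of the immunity-associated protein family) were described across 4 RNA sequencing libraries of splenic CD4 T cells from mice with transfer colitis. The members were the 8 genes Gimap1, Gimap3, Gimap4, Gimap5, Gimap6, Gimap7, Gimap8 and Gimap9, found by symbol in a table of 16230 genes. All 8 passed the filter on low values, a mean of at least 1 FPKM (fragments per kilobase of transcript, scaled to the library total), as did 12896 genes in all. The family was chosen by its FPKM values in the contrast below, where most members were low in the libraries labelled CD4cre. Its differences between the groups are therefore given as a description. Counts of its genes called in fits over all genes are printed, but they are no test of the family.

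The libraries labelled CD4cre (2 libraries) came from donor T cells of CD4creERafl/fl mice, in which a Cre recombinase under Cd4 regulatory sequence is meant to delete loxP-flanked Esr1, the gene of estrogen receptor α. The control libraries (2 libraries) came from ERafl/fl donor cells, with the same flanked alleles and no Cre. Naive CD4 T cells of either kind were injected into Rag-/- mice, hosts without lymphocytes that rearrange antigen receptors, and cells sorted as CD3+CD4+ were taken from the spleens 8 weeks later. Cre driven from Cd4 acts during thymic development, so the deletion precedes the transfer. Age and sex of the mice, and whether replicate libraries derive from different animals, are not stated in the labels, so the spread between libraries may be technical.

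GIMAP proteins bind GTP through a domain related to that of septins, and several are held on intracellular membranes by a hydrophobic tail. The genes lie side by side in mammals and are expressed mainly in lymphocytes. In rats and mice, loss of Gimap5 depletes peripheral T cells, and mice without functional Gimap5 develop intestinal inflammation.

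The 8 genes occupied 124 kb of GRCm38 (mm10) chromosome 6, from 48647186 to 48770851, in the order Gimap8, Gimap9, Gimap4, Gimap6, Gimap7, Gimap1, Gimap5 and Gimap3. RefSeq promoter windows on GRCm38.p6, of 250 bases before to 50 bases after the annotated start, were available for all 8, with 2 windows for Gimap8. Windows of 3 genes are printed because they span the range of the results: Gimap7 had the largest difference between the groups, Gimap4 had the highest control level, and Gimap1 differed least. All 3 lie on the plus strand. Capitals mark matches on either strand to AGGAAG (a form of the site bound by ETS factors), TGTGGT (RUNX factors) or AGGTCA (the half-site of nuclear receptors).
Gimap7, chr6:48718371-48718670: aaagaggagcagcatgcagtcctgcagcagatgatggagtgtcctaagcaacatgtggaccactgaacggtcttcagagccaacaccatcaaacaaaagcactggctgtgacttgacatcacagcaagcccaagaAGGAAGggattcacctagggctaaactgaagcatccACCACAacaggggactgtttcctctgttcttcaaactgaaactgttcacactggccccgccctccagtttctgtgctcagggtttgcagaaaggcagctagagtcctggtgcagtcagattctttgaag
Gimap4, chr6:48684328-48684627: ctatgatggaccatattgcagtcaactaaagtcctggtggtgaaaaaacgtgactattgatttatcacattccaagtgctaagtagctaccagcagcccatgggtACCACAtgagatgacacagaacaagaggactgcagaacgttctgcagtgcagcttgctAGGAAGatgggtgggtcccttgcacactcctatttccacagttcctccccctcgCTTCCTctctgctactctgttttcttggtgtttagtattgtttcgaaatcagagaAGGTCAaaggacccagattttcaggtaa
Gimap1, chr6:48738797-48739096: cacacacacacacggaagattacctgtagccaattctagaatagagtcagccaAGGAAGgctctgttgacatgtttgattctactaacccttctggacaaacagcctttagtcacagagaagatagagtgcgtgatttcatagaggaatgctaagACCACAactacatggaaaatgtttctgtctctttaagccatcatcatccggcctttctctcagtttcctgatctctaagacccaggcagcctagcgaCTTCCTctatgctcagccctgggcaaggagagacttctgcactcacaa

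The ETS letters AGGAAG were found in 7 of the 9 GIMAP windows, and 35.4% of all 32851 promoter windows of this length hold them. The windows without these letters were that of Gimap6 and the upstream window of Gimap8. Other forms of the ETS site were not searched, so these windows may hold one. The RUNX letters TGTGGT were found in 3 windows, those of Gimap1, Gimap4 and Gimap7, against 16.8% of all windows. The half-site AGGTCA was found only in the Gimap4 window, starting at base 23 after the start, against 16.3% of all windows. The full estrogen response element, GGTCA and TGACC set 3 bases apart, was in none of the 9 GIMAP windows and in 0.1% of all windows. The motifs were searched on both strands, and none of the matches marked in the 3 printed windows overlaps another. Gimap1, whose level differed least, and Gimap7, whose level differed most, both held the ETS and RUNX letters.

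Depth limited all values. The table holds no counts, but for genes with 1 transcript FPKM multiplied by length falls on multiples of 1 fragment, which gave an estimated 508000 and 566000 fragments for the libraries labelled CD4cre and 708000 and 676000 for the controls. Between 78.2% and 79.7% of low values lay within 0.2 of a whole fragment at these steps. The totals were chosen for the best agreement of these same values with whole fragments. This share thus describes the fit and is no separate check of it. Esr1, the targeted gene, was listed at 0 and at 1.96 FPKM in the libraries labelled CD4cre, and at 0.23 and 0 in controls, so its level does not check the labels. A value listed at 0 can be a failed assignment of fragments. Summed over 20 T cell markers, the libraries labelled CD4cre held 460 and 417 FPKM and the controls 2053 and 1602. Summed over 21 macrophage and monocyte markers they held 2938 and 3553 FPKM, against 129 and 581 in controls. In bulk libraries, fewer T cells and less of these transcripts per T cell cannot be told apart, and this applies to every GIMAP value below. For genes of the other lists, a difference in cell make-up and a difference per cell cannot be told apart either.

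Of the 8 GIMAP genes, 7 were lower in both libraries labelled CD4cre than in both controls, where 25.7% of all tested genes show that order. Gimap1 was the exception. The median log2 fold change of the family, libraries labelled CD4cre minus controls on log2(FPKM + 1), was -2.15, against -0.07 for all genes tested. In limma over all genes, 0 of the 8 were called at an adjusted p under 0.05, where 0.0388% of genes (5 of 12896) fell and 0.0155% (2) rose. With voom weights on the estimated fragments, 3 of the 5 members that have 1 transcript were called lower (Gimap3, Gimap6 and Gimap7), where 0.623% of 7549 genes were. These counts rest on the contrast by which the family was picked and are a description only.

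**Figure D1:**
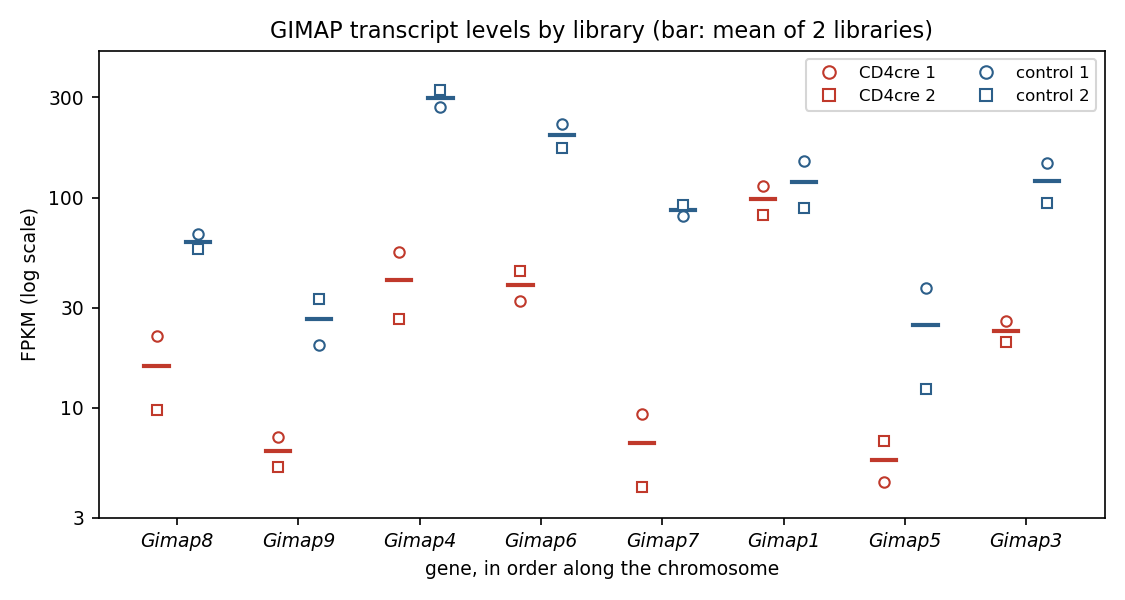
FPKM (log axis) of the 8 GIMAP genes in each library, in order along the chromosome; circles and squares are libraries 1 and 2 of a group and bars are the mean of 2 libraries. Both points labelled CD4cre lie below both control points for 7 genes, and for Gimap1 the ranges of 82.6 to 114 and 88.9 to 150 FPKM overlap.

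Gimap7 showed the largest difference. The human protein GIMAP7 hydrolyses GTP as a dimer and stimulates hydrolysis by its relative GIMAP2. Gimap7 had 9.40 and 4.22 FPKM in the libraries labelled CD4cre, and 82.2 and 92.1 FPKM in the controls. Both values labelled CD4cre lay far below both controls, and the lower control was 8.74 times the higher of them. The log2 fold change was -3.58 ± 0.43 (SE), at percentile 0.217 of the differences of all tested genes. Estimated fragments behind these levels were 5.87 and 2.94 in the libraries labelled CD4cre and 71.5 and 76.5 in controls. The controls agreed closely, and the libraries labelled CD4cre differed 2.23-fold on a handful of fragments.

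Gimap4 was the most abundant member in controls. Its product is known in mice to affect how fast T cells die once apoptosis has begun. Gimap4 had 54.9 and 26.6 FPKM in the libraries labelled CD4cre and 270 and 325 FPKM in controls. Again no library of one group reached the other, and the lower control was 4.92 times the higher library labelled CD4cre. The log2 fold change was -2.92 ± 0.41 (SE). Gimap4 has 5 listed transcripts of 771 to 1804 bases, so its fragments can be bounded only, at 20.4 to 49.2 in CD4cre library 1 and 160.6 to 387 in control 2.

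Gimap6 encodes a protein that binds the autophagy protein GABARAPL2. It had 32.4 and 44.7 FPKM in the libraries labelled CD4cre and 224 and 173 FPKM in controls, on an estimated 25.6 and 39.4 and 246 and 181 fragments. The groups did not overlap, and both pairs of libraries stayed within 1.4-fold of each other. The log2 fold change was -2.34 ± 0.32 (SE), the smallest SE among the 8 genes. Among the 5 members with 1 transcript, Gimap6 thus had the most fragments in both controls and in CD4cre library 2.

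Gimap3 and Gimap5 are neighbours with similar sequence. Gimap3 is linked in mice to the segregation of mitochondrial DNA, and Gimap5 to the survival of naive T cells. Gimap3 had 25.8 and 20.5 FPKM in the libraries labelled CD4cre and 146 and 94.8 FPKM in controls, a log2 fold change of -2.30 ± 0.35 (SE). Gimap5 had 4.42 and 6.93 FPKM in the libraries labelled CD4cre and 37.2 and 12.2 FPKM in controls, a log2 fold change of -1.78 ± 0.60 (SE). Neither gene overlapped between the groups, but the Gimap5 controls differed 3.04-fold, the widest gap within a group among the 8 genes. On estimated fragments, Gimap5 rested on 4.30 and 7.5 in the libraries labelled CD4cre and on 50.4 and 15.8 in controls.

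The longest transcripts of Gimap3 and Gimap5 share 605 bases in exact stretches of at least 31 bases, the longest of 140 bases, so the split of fragments between them is an estimate. Stretches are also shared with other genes, so that Gimap3 shares with 9 genes in all and Gimap5 with 2. Their sum, which depends less on the split between them because their lengths of 2145 and 1953 bases are similar, was 30.2 and 27.4 FPKM in the libraries labelled CD4cre and 183 and 107 FPKM in controls. The sum kept the groups apart, with control means 5.03 times the means of the libraries labelled CD4cre, close to the 5.20 of Gimap3 alone.

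Gimap8 encodes the longest protein of the family, with several GTP-binding domains. It had 22 and 9.75 FPKM in the libraries labelled CD4cre and 67.0 and 56.8 FPKM in controls, a log2 fold change of -1.99 ± 0.45 (SE). Gimap9 had 7.29 and 5.24 FPKM in the libraries labelled CD4cre and 19.9 and 32.9 FPKM in controls, a log2 fold change of -1.89 ± 0.42 (SE). Neither overlapped between the groups. Gimap9 had an estimated 4.98 and 3.99 fragments in the libraries labelled CD4cre and 18.9 and 29.9 in controls. Gimap8 has 3 listed transcripts, and its values correspond to between 14.0 and 34.9 fragments in the libraries labelled CD4cre and between 97.4 and 148 in controls.

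Gimap1 stood apart from the other members. In mice its deletion removes mature T and B cells. Gimap1 had 114 and 82.6 FPKM in the libraries labelled CD4cre and 150 and 88.9 FPKM in controls. The groups overlapped, since control 2 lay between both libraries labelled CD4cre. The log2 fold change was -0.25 ± 0.37 (SE), smaller than its error and at percentile 40.9 of all tested genes, and without control 1 it was 0.13. Gimap1 exceeded the mean of the other 7 members by 2.70 and 2.65 on the log2 scale in the libraries labelled CD4cre, against 0.78 and 0.27 in controls. This gap was picked out after the values were seen.

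The make-up of the family signal differed between the groups. Gimap1 made up 42.2% and 41.2% of the summed GIMAP FPKM in the libraries labelled CD4cre, against 15.0% and 10.2% in controls. Gimap4 made up 20.3% and 13.2% in the libraries labelled CD4cre and 27.2% and 37.1% in controls. The sum itself was 270.3 and 200.5 FPKM in the libraries labelled CD4cre and 995 and 875 FPKM in controls. Without Gimap1 it was 156 and 118 FPKM, against 846 and 786 FPKM.

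The value of Gimap1 is less certain than those of Gimap4, Gimap6 and Gimap9, which share no stretch of 31 bases with transcripts of other genes. Of 1493 bases in its matched transcript, 446 (29.9%) lie in exact stretches of at least 31 bases also found in transcripts of 29 other genes. Exons of Gm28053, a protein-coding locus on the same strand, overlap 198 bases of it, 153 bases of Gimap5 and 81 bases of Gimap7. The antisense gene Gimap1os overlaps 201 bases of Gimap1 on the opposite strand. No source used here says whether counting used strand, so antisense fragments cannot be told apart. The part of this sharing in the Gimap1 level was not tested.

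FPKM is scaled to length, so levels can be ordered across the genes. In the libraries labelled CD4cre the order by mean was Gimap1 (98.4 FPKM), Gimap4 (40.7), Gimap6 (38.6), Gimap3 (23.1), Gimap8 (15.9), Gimap7 (6.81), Gimap9 (6.27) and Gimap5 (5.68). Here the ranges were separate between Gimap1 and Gimap4, between Gimap6 and Gimap3, and between Gimap8 and Gimap7. They overlapped between Gimap4 and Gimap6, between Gimap3 and Gimap8, and among the 3 lowest genes, although Gimap3 exceeded Gimap8 within each library. In controls the order was Gimap4 (298 FPKM), Gimap6 (198), Gimap3 (120.2), Gimap1 (119), Gimap7 (87.1), Gimap8 (61.9), Gimap9 (26.4) and Gimap5 (24.7). The ranges overlapped between Gimap3 and Gimap1, between Gimap1 and Gimap7, and between Gimap9 and Gimap5, and were separate for the other neighbours in the order.

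T cell transcripts were lower in the same libraries, so GIMAP levels were also set beside them. All 20 T cell markers were lower in both libraries labelled CD4cre than in both controls, as were 25.7% of all tested genes. The median log2 fold change of the markers was -2.54, and 0 were called in limma. At an unadjusted limma p under 0.05, 18 were lower, against 6.8% of all genes. With voom weights 8 of 11 were called lower, against 0.623% of all genes. Cd3e, which encodes the CD3 epsilon chain, had 9.81 and 10.1 FPKM in the libraries labelled CD4cre and 65.5 and 60.2 FPKM in controls. Cd3g, for the gamma chain, had a log2 fold change of -2.84 ± 0.27 (SE) and Lck, the kinase bound to CD4, of -3.02 ± 0.31 (SE), with limma adjusted p of 0.079 and 0.082. The mean of the 8 GIMAP genes on log2(FPKM + 1) exceeded that of the markers by 0.86 and 0.20 in the libraries labelled CD4cre and by 0.26 and 0.38 in controls. The groups overlapped on this scale, and the difference of 0.21 was within the spread between libraries (SD 0.34). This difference was -0.12 without CD4cre library 1 and 0.54 without CD4cre library 2. Without Gimap1, an alternative chosen after the data were seen, it was -0.06.

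Set beside the T cell markers, only Gimap1 and Gimap7 among the members did not overlap between the groups, in opposite directions. The share of all genes that separate on this scale was not computed, so this does not set either gene apart from genes in general. Relative to the marker mean, Gimap1 stood at 3.23 and 2.52 in the libraries labelled CD4cre and at 0.94 and 0.61 in controls on the log2 scale, with no overlap. Gimap7 stood at -0.24 and -1.48 in the libraries labelled CD4cre and at 0.09 and 0.66 in controls, again with no overlap. Its values labelled CD4cre rested on an estimated 5.87 and 2.94 fragments. The marker Cd3g stood at 1.13 and 0.93 against 1.37 and 1.68, and Lck at 0.72 and 0.33 against 1.23 and 1.19. Both were thus also lower without overlap, while Cd3e overlapped. Other markers went the other way on this scale. Cd4 and Cd247 fell less than the marker median of -2.54, with log2 fold changes of -1.41 and -1.35 before scaling. They were named after their values were seen. Gimap6 held almost the same place in all 4 libraries, at 1.44 and 1.65 against 1.52 and 1.56, and Gimap3 lay at 1.13 and 0.56 against 0.91 and 0.70. Gimap4, Gimap5, Gimap8 and Gimap9 overlapped between the groups on this scale. When every library was scaled to these markers, the family's median log2 fold change became 0.13 and that of all tested genes 1.91. On that scale Gimap8, Gimap9 and Gimap5 had positive log2 fold changes (0.26, 0.26 and 0.35), and Gimap7 had -1.38. Gimap1 had 2.07, near the median of all tested genes.

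**Figure D2:**
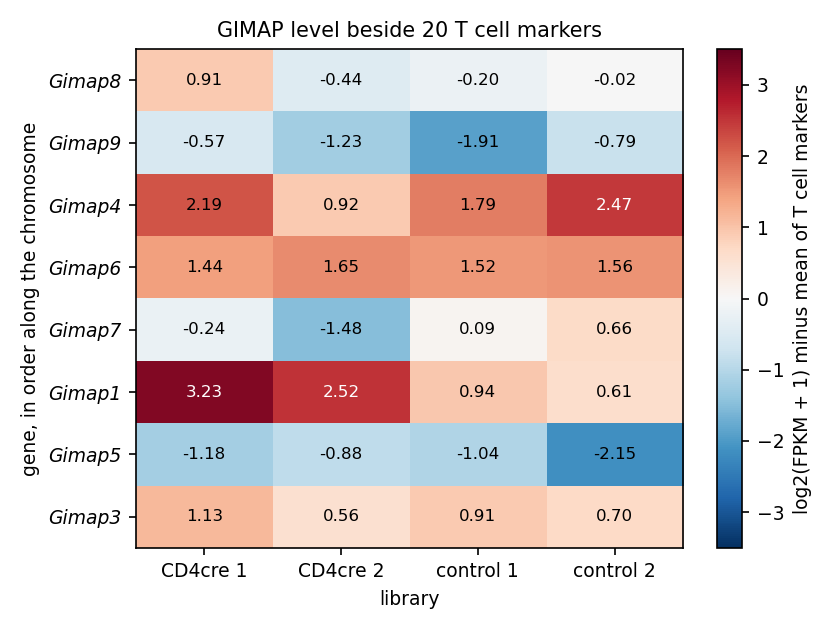
Level of each GIMAP gene in each library on log2(FPKM + 1), minus the mean of the 20 T cell markers in that library; red is above and blue below the markers. Gimap6 stays between 1.44 and 1.65 in all 4 libraries, while Gimap1 is highest in the columns labelled CD4cre (3.23 and 2.52).

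Other genes of the locus lay on both sides of 0, with Krba1 and Igf2bp3 ordered as most of the family was. Of 14 other genes within 500 kb of the cluster that the table holds, 12 were tested. Their median log2 fold change was 0.03, with 4 higher and 2 lower without overlap between the groups, where 23.2% and 25.7% of all genes are. None was called in limma (0 of 12, and 0 of 6 with voom weights). At an unadjusted limma p under 0.05, 2 were higher and 1 lower, where 9.1% and 6.8% of all genes were. The nearest genes beyond Gimap3 were Tmem176b and Tmem176a, which encode membrane proteins found in dendritic and myeloid cells. Tmem176b had 54.6 and 57.5 FPKM in the libraries labelled CD4cre and 19.0 and 35.3 FPKM in controls, a log2 fold change of 1.08 ± 0.39 (SE, limma adjusted p = 0.277). Tmem176a had 32.5 and 27.4 FPKM against 19.2 and 11.5 FPKM in controls, a log2 fold change of 0.96 ± 0.39 (SE, limma adjusted p = 0.316).

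On the other flank, beyond Gimap8, the nearest tested genes were Zfp775 and Repin1, which encode zinc finger proteins. Zfp775 had 2.42 and 1.31 FPKM in the libraries labelled CD4cre and 0.70 and 0.37 in controls, and Repin1 had 0.64 and 0.60 against 0.48 and 2.50. Rarres2, the gene of the chemoattractant chemerin, had 117 and 97.1 FPKM in the libraries labelled CD4cre and 111 and 88.1 FPKM in controls, nearly equal in the groups. Lrrc61 had 33.5 and 18.9 FPKM against 7.45 and 9.18 FPKM, with a log2 fold change of 1.5 ± 0.42 (SE, limma adjusted p = 0.202). The distal genes were Zfp467, Gpnmb, Malsu1, Igf2bp3 and Tra2a, with log2 fold changes of 0.39, -0.22, -0.07, -0.64 and -0.05, each at 28.4 FPKM or less in every library. Krba1 was listed at 0 in both libraries labelled CD4cre and had 2.83 and 1.91 FPKM in controls (limma adjusted p = 0.279). Sspo and Zfp862-ps were below the filter.

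**Figure D3:**
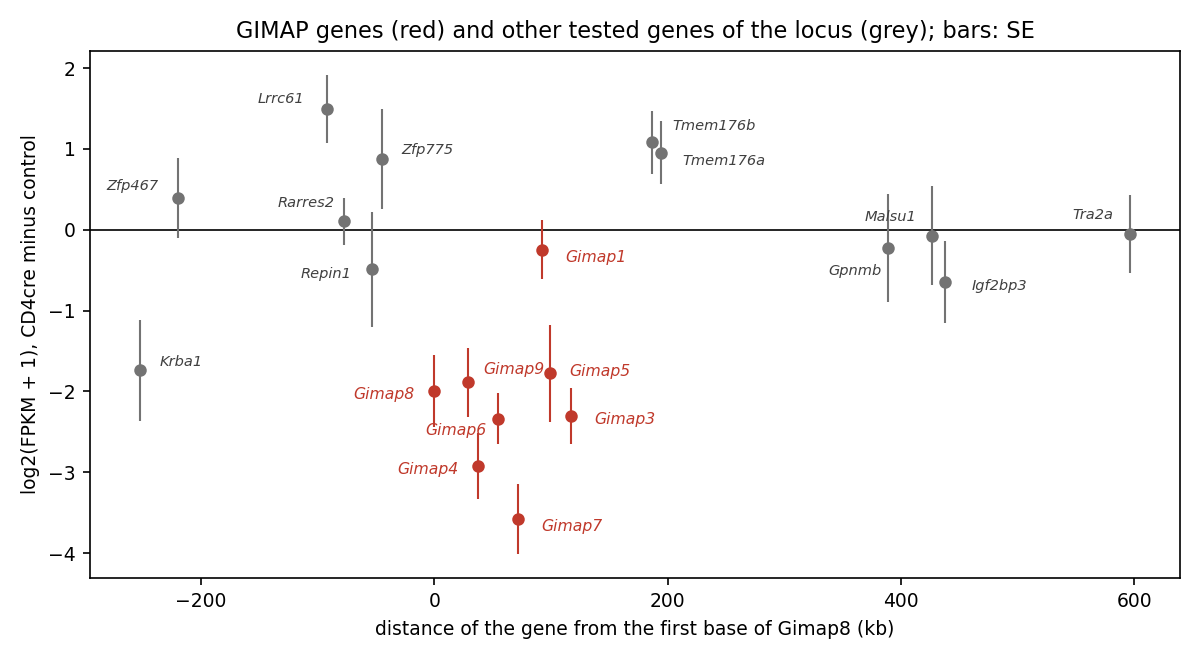
Log2 fold change on log2(FPKM + 1), libraries labelled CD4cre minus controls, with its SE, against distance from the first base of Gimap8, for the 8 GIMAP genes (red) and the 12 other tested genes (grey). Between Gimap8 and Gimap3, 7 of the 8 points lie between -1.78 and -3.58, and the flanking Zfp775 (0.88) and Tmem176b (1.08) lie above 0.

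Genes of the processes in which GIMAP proteins are known to act were taken as 5 whole lists, and 0 of their 80 tested genes were called in limma, with 8 higher and 11 lower at an unadjusted p under 0.05, where 9.1% and 6.8% of all 12896 genes were. With voom weights, 0 rose and 1 fell of 46. The quiescence and interleukin-7 list covers genes that keep resting T cells alive and circulating. Of its 20 genes 13 were lower and 3 higher without overlap (25.7% and 23.2% of all genes), and its median log2 fold change was -0.65. Lef1, a transcription factor of naive T cells, had 1.12 and 1.87 FPKM in the libraries labelled CD4cre and 26.2 and 12.0 FPKM in controls (limma adjusted p = 0.129). S1pr1, the receptor by which lymphocytes leave lymphoid organs, had 1.97 and 1.77 FPKM against 31.1 and 12.4 FPKM in controls (limma adjusted p = 0.139).

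The BCL2 family, of which GIMAP3, GIMAP4 and GIMAP5 are reported partners in mice, had a median of 0.49, with 8 of 16 genes higher and 2 lower without overlap (23.2% and 25.7% of all genes). Without CD4cre library 2 that median was 0.14. Bbc3, which encodes the death-promoting protein PUMA, had 44.5 and 23.6 FPKM in the libraries labelled CD4cre and 16.1 and 4.63 FPKM in controls (limma adjusted p = 0.279). Hrk, another promoter of cell death, had 4.21 and 1.94 FPKM against 0.59 and 0.05 FPKM (limma adjusted p = 0.317). In the ATG8 autophagy list 4 of 12 genes were higher and 4 lower without overlap (23.2% and 25.7% of all genes). Its median was -0.03, and it lay between -0.28 without CD4cre library 2 and 0.31 without CD4cre library 1. Gabarapl2, the partner of GIMAP6, had 10.2 and 20.2 FPKM in the libraries labelled CD4cre and 29.4 and 61.6 FPKM in controls (limma adjusted p = 0.262). Gabarapl1 had 12.4 and 8.12 FPKM against 3.25 and 1.70 FPKM (limma adjusted p = 0.206).

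Among kinase and lysosome genes linked to GIMAP5, the median of 13 genes was 0.02, with 5 higher and 4 lower without overlap (23.2% and 25.7% of all genes). The median lay between -0.13 without CD4cre library 2 and 0.29 without CD4cre library 1. Lamp1, a protein of the lysosomal membrane, had 108 and 102 FPKM in the libraries labelled CD4cre and 33.3 and 37.6 FPKM in controls (limma adjusted p = 0.129). Tfeb, a transcription factor of lysosomal genes, had 13.9 and 11.4 FPKM against 2.49 and 2.62 FPKM (limma adjusted p = 0.15). Another set of immune GTPases, the interferon-inducible IRG and GBP families, had a median of -0.59, with 8 of 19 genes lower and 3 higher without overlap (25.7% and 23.2% of all genes). The median was -0.08 without CD4cre library 2, -1.0 without control 1 and -0.25 without control 2. Gbp6 had 9.54 and 4.25 FPKM in the libraries labelled CD4cre and 29.6 and 57.9 FPKM in controls, and Gm4951 had 51.5 and 26.9 FPKM against 15.9 and 10.8 FPKM (limma adjusted p = 0.15 and 0.231). The GIMAP differences other than that of Gimap1 lay below the medians of all 5 lists, which the choice of the family by this contrast made likely. Single genes of these lists lay among the GIMAP differences, such as Lef1 at -2.93, S1pr1 at -2.85 and Gbp6 at -2.51. Of the 80 tested genes of the 5 lists, 46 were lower and 34 higher.

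**Figure D4:**
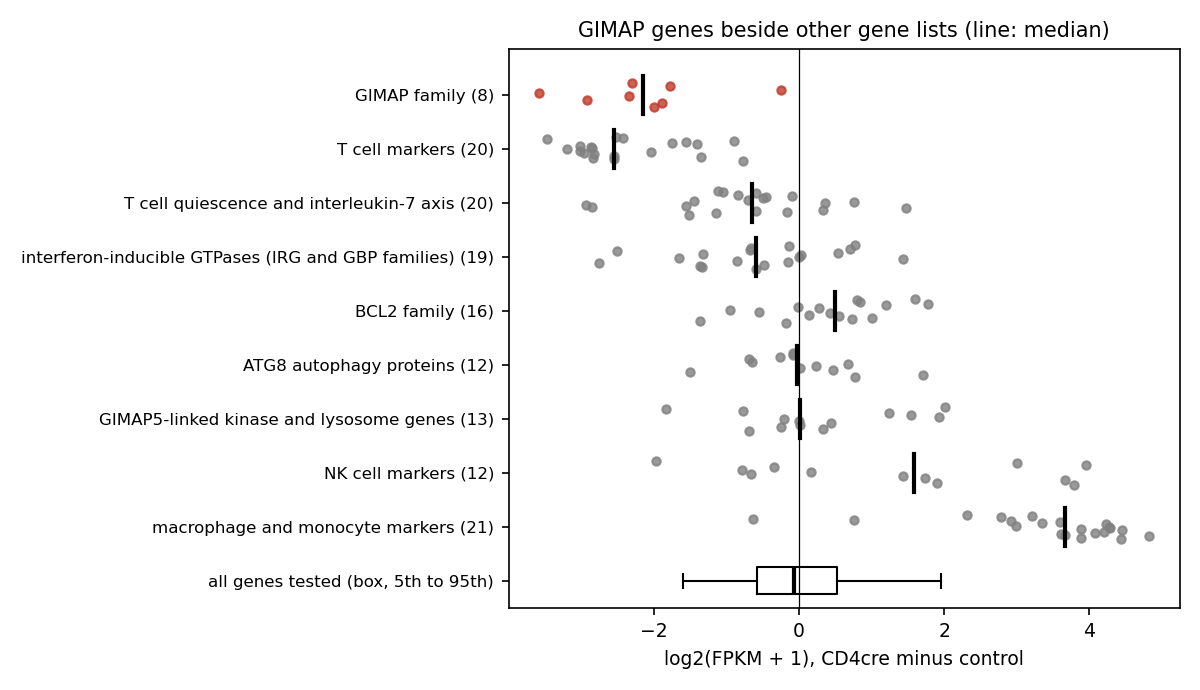
Log2 fold changes on log2(FPKM + 1), libraries labelled CD4cre minus controls, of every tested gene in the GIMAP family (red) and in 8 gene lists (grey), with the number tested in brackets and the median as a line; the box for all genes spans the quartiles, its whiskers the 5th to 95th percentile. The GIMAP median of -2.15 lies near that of the T cell markers (-2.54), with Gimap1 to the right at -0.25.

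Macrophage transcripts were also present in these CD3+CD4+ sorted samples, at higher levels in the libraries labelled CD4cre. Of 21 macrophage and monocyte markers, 19 were higher in both libraries labelled CD4cre than in both controls, as were 23.2% of all tested genes. With voom weights 12 of 17 rose, where 1.95% of all genes did, while limma called 0. At an unadjusted limma p under 0.05, 19 were higher, against 9.1% of all genes. C1qa, a complement component of macrophages, had 349 and 194 FPKM in the libraries labelled CD4cre and 2.70 and 38.2 FPKM in controls. Csf1r, which encodes the CSF1 receptor, had 121 and 120.3 FPKM against 2.94 and 22.3 FPKM, and Hmox1, the heme oxygenase, had 399 and 453 FPKM against 7.94 and 41.6 FPKM. None of the 21 was at 0 in either library labelled CD4cre, and 5 were at 0 in control 1. The part of these transcripts in the GIMAP differences was not tested. The controls also differed from each other in this list, by mean levels of 1.81 and 4.12 on log2(FPKM + 1), while their mean GIMAP levels were 6.55 and 6.26.

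Lymphocytes other than T cells can express GIMAP genes, as can endothelium. NK cell markers summed to 121 and 246 FPKM in the libraries labelled CD4cre and to 94.7 and 124 FPKM in controls, with Klra8 and Ncr1 listed at 0 in both controls. Of 12 NK cell markers 6 were higher and 2 lower without overlap (23.2% and 25.7% of all genes). The lower ones were Nkg7 and Eomes, named after their values were seen. B and plasma cell markers summed to 211 and 98.4 FPKM against 71.3 and 94.9 FPKM, and Cd22 alone gave most of each sum. Cd22 had 199 and 76.3 against 51.7 and 65.9 FPKM, and Fcer2a had 1.27 and 10.96 against 17.5 and 16.6 FPKM. Of the 9 B and plasma cell markers with values, 5 passed the filter. Endothelial and stromal markers summed to 14.0 and 21.8 FPKM in the libraries labelled CD4cre and 19.1 and 19.2 FPKM in controls, of which Pecam1 gave 10.4 and 15.6 against 18.0 and 11.4 FPKM, and Ccl19 was listed above 0 in control 2 alone.

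Of the remaining lists, dendritic cell markers had a median of 2.79 on the log2 scale, with Cd209a and Batf3 at 4.41 and 4.12. Of 15, 11 were higher and 2 lower without overlap (23.2% and 25.7% of all genes), the lower ones being Xcr1 and Ccr9, named after their values were seen. The median was 1.29 without control 1 and 4.28 without control 2. Neutrophil markers had a median of 1.15, and of 0.58 without control 1. Of 13, 7 were higher without overlap (23.2% of all genes), with Csf3r and Ly6g at 1.26 and 2.16. Erythroid markers had a median of 1.81, with Car1 and Car2 at 2.28 and 1.95 and 2 of 12 higher without overlap, below the 23.2% of all genes. That median was -0.50 without control 1 and 4.04 without control 2. Their summed level set control 1 apart, at 227 FPKM against 8402 in control 2. In the libraries labelled CD4cre that sum was 6702 and 5254 FPKM. Platelet markers had a median of 0.19 over 4 tested genes, Ppbp and Itgb3 among them at 0.91 and 0.28. It was -0.05 without CD4cre library 1, 0.11 without CD4cre library 2 and 0.47 without control 1. In limma 0 genes of these lists were called.

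The genes whose profile over the 4 libraries lay nearest to the mean GIMAP profile were Klk8, Apol7e, Prkcq, Podnl1 and Lgals1. Likeness was the Euclidean distance between profiles centred on their own mean, on log2(FPKM + 1), among 5539 genes with a mean of at least 10 FPKM, and it was 0.15, 0.16, 0.17, 0.20 and 0.24 for these 5. Prkcq, the protein kinase C of the T cell receptor synapse, had 9.58 and 6.45 FPKM in the libraries labelled CD4cre and 40.0 and 29.8 FPKM in controls. Lgals1, the gene of galectin-1, had 65.4 and 49.7 FPKM against 247 and 254 FPKM. Klk8, a serine protease gene, had 4.58 and 2.74 FPKM against 19.7 and 16.1 FPKM. With 4 libraries this is a description of likeness in these samples.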

How the data were processed

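The authors deposited 1 table with an FPKM value per gene and library. Per the submitters' processing notes, the tools were HISAT, Bowtie2 and RSEM and the build was mm10; no version is stated. Of the gene identifiers, 16183 matched the GRCm38.p6 RefSeq list and 47 did not; 23 symbols turned into dates were restored. Genes with a mean of at least 1 FPKM entered a limma fit (version 3.58.1, R 4.3.3) of log2(FPKM + 1), a scale that understates changes of low genes, with group as the only term, a trend on mean expression and Benjamini-Hochberg adjustment. The 4 libraries allow no two-sided exact permutation p below 0.33 for a single value. Fragments were estimated for 10348 genes with 1 transcript longer than 800 bases, after taking 40 bases off each length. Voom weights used genes with at least 10 fragments in all.

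Equal library numbers were not treated as pairs. The members and the 14 lists were chosen with earlier results of these data known. The text names the 8 members, all tested genes of the locus, the 5 nearest profiles, 3 genes each for T cells and macrophages, and the 2 genes of smallest p in every other list. Any other list gene given with its values is marked as named after they were seen. Tcf7 is in 2 lists. Shared sequence was searched in GENCODE transcripts. The limma fit was also run on simulated fragments with a preset spread and no difference in cell make-up. Its outcome there does not carry over to these libraries, whose macrophage and erythroid transcripts differ. Alternatives were another pseudocount, other filters and scalings, each library left out, a replicate block and voom weights.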

Additional observations from a re-analysis of the deposited data

How the results depend on the processing

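Of 61 log2 fold changes of single GIMAP genes under the alternatives that can change them, other than scaling to T cell markers, 60 were below 0. The exception was Gimap1 without control 1 (0.13). These alternatives refit the libraries by which the family was chosen, so this count is a description and adds no support. After scaling to T cell markers, Gimap1, Gimap5, Gimap8 and Gimap9 were above 0 and the other members below. The family's median lay between -2.53 and -2.08 when single libraries were left out. It was 0.13 after scaling to T cell markers, which moved the median of all genes from -0.07 to 1.91 by its construction. That scaling also gave Gimap8 and Gimap9 0.26, Gimap5 0.35, and medians of 1.54 for the quiescence list, 1.59 for the IRG and GBP families and 0.58 for endothelial markers. It called 8573 genes higher and 43 lower, 7 other genes of the locus and 125 list members. Voom weights called 147 genes higher, 47 lower and 23 list members. In place of 2 genes higher and 5 lower, limma called 0 and 0 with a pseudocount of 0.1, with no filter and without any single library, and 0 higher with a minimum of 5 FPKM. With the replicate block it called 0 and 0 (1117 higher and 771 lower at an unadjusted p under 0.05), and the GIMAP median was -2.15. Deviations of equally numbered libraries had a correlation of -0.00161 over genes, and the labels tie the numbers to nothing. At an unadjusted p under 0.05, the pseudocount of 0.1 gave 1031 higher and 782 lower genes and no filter 1251 and 939. Without single libraries these counts were 718 to 1040 and 492 to 1205. Medians of other lists moved with single libraries: that of erythroid markers was -0.50 without control 1, that of NK cell markers, 1.58, was 0.72 without CD4cre library 2 and 0.95 without control 1, and that of B and plasma cell markers, 1.06, lay between 0.38 and 0.80. The median of the platelet list, 0.19, lay between -0.05 (without CD4cre library 1) and 0.47 (without control 1). The cause of these changes was not tested. Among the members, Gimap5, Gimap7 and Gimap9 rested on the fewest estimated fragments in the libraries labelled CD4cre. They had about 7.5 or fewer in each, which limits these values most.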
